A study of Mus musculus with 62 samples.

Results

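The delta protocadherins are a small family of cadherin-type adhesion proteins whose genes lie on several chromosomes, outside the protocadherin gene clusters. All 10 members searched for were found by their mouse Entrez identifiers among 18821 genes listed in at least 1 tissue of female C57BL/6 mice. They were Pcdh1, Pcdh7, Pcdh9 and Pcdh11x (delta1), Pcdh8, Pcdh10, Pcdh17, Pcdh18 and Pcdh19 (delta2), and Pcdh20, which is often set apart from both. All 10 were listed in the prefrontal cortex and the striatum, and 9 in the liver, where Pcdh8 was not listed. Pcdh1 was chosen by its falling dose slope in the prefrontal cortex, and the other 9 as members of its family. Pcdh1 values in that tissue, and every difference that uses them, are therefore given as a description with no test.

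C57BL/6 is an inbred laboratory strain. The mice were given by mouth the MARBLES mixture of polychlorinated biphenyls (PCBs), industrial chemicals that persist in the body, at 0.1, 1 or 6 mg/kg, or vehicle alone. The labels name no genetic alteration and give neither the age of the mice nor the length of dosing. RNA from tissue punches was sequenced. From vehicle to the highest dose, both brain regions were represented by 4, 5, 6 and 6 libraries and the liver by 4, 4, 6 and 6. Totals per library were 8722232 to 12135200 counts in the prefrontal cortex, 8283032 to 12019651 in the striatum and 7381179 to 10203247 in the liver. Titles carry a number, and the numbers of both brain regions match and recur in the liver except for number 24 (0.1 mg/kg). A shared number was taken as a shared mouse, which is an assumption, and p-values measure the spread between these libraries, which may be partly technical.

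Each delta protocadherin is a single-pass membrane protein with a row of cadherin repeats outside the cell, through which it binds the same protein on a neighbouring cell. The cytoplasmic tails differ. Those of delta1 members carry a conserved motif that binds protein phosphatase 1, and those of delta2 members recruit the WAVE complex, which drives the assembly of branched actin. In the forebrain these genes are known for patterned expression over regions and cell types, and for roles in axon growth and in the making and removal of synapses.

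Marker genes set the tissues apart, with mixing in places. The 5 hepatocyte markers summed to between 77179 and 171834 CPM (counts scaled to library size, with TMM factors from edgeR) in the liver. The 8 markers of cortical excitatory neurons summed to between 1470 and 2452 CPM in the prefrontal cortex and to between 170 and 718 CPM in 18 of the 21 striatum libraries. The other 3 striatum libraries, numbered 8 (vehicle), 46 and 50 (both 1 mg/kg), held 1257, 1023 and 1802 CPM of them. The 8 markers of striatal projection neurons summed to between 2779 and 6671 CPM in the striatum, and reached between 944 and 3041 CPM in the prefrontal cortex punches. Choroid plexus markers reached 4342 CPM in 1 striatum library against a lowest of 22.3 CPM. In bulk tissue such as this, fewer cells of a type and less RNA per cell cannot be told apart.

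Pcdh1 was the most abundant member per length of transcript in all 3 tissues. Its gene (Entrez 75599) lies on chromosome 18 from 38185914 to 38212048 on the minus strand of GRCm38.p6, and its longest transcript is 60.7% GC, the highest of the family. In vehicle libraries its level, in CPM per kb of exon, was 44 ± 2.47 in the prefrontal cortex, 32.2 ± 8.95 in the striatum and 8.41 ± 0.867 in the liver (SD, n = 4 each). In the prefrontal cortex it stood clear of all others, since its lowest vehicle library held 42 CPM per kb and the highest of any other member was 21.8. Next in that tissue came Pcdh9 at 19 ± 2.36, Pcdh7 at 17.3 ± 2.66 and Pcdh10 at 17.1 ± 1.65 CPM per kb (SD, n = 4 each), whose ranges overlapped. Pcdh8 followed at 13.1 ± 1.55 CPM per kb and overlapped with Pcdh7, while Pcdh17 at 6.76 ± 0.707 CPM per kb overlapped with no neighbour (SD, n = 4 each). Pcdh19 (3.85 CPM per kb) and Pcdh20 (3.41 CPM per kb) overlapped with each other, as did Pcdh18 (1.4 CPM per kb) and Pcdh11x (1.18 CPM per kb) at the bottom.

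The order in the striatum was different. Pcdh8 came next to Pcdh1 at 23.4 ± 5.24 CPM per kb, and Pcdh10 followed at 20.6 ± 1.93 (SD, n = 4 each). Pcdh8 ran from 16.8 to 29.6 CPM per kb and so overlapped with both Pcdh1, which began at 24.7, and Pcdh10. Then came Pcdh9 at 14.7, Pcdh17 at 12.1, Pcdh7 at 10.9, Pcdh19 at 4.64, Pcdh20 at 3.83, Pcdh11x at 2.05 and Pcdh18 at 1.65 CPM per kb. With the longest transcript in place of the union of exons as the length, Pcdh10 moved to the second place in both brain regions, at 33.1 (prefrontal cortex) and 39.7 (striatum) CPM per kb. The transcript models the authors counted over are not given in the sources used here, so these orders between genes rest on GENCODE lengths.

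In the prefrontal cortex, the group means of Pcdh1 stepped down with dose. The 4 vehicle libraries held 369, 370, 396 and 414 CPM, and the 5 at 0.1 mg/kg held 299, 327, 379, 387 and 421 CPM. The lowest, median and highest of 6 libraries were 267, 297 and 373 CPM at 1 mg/kg, and 221, 274 and 297 CPM at the highest dose. The 0.1 mg/kg libraries lay on both sides of the vehicle libraries, 5 of 6 libraries at 1 mg/kg lay below the lowest vehicle library, and all 6 at 6 mg/kg did. Genes whose 6 mg/kg libraries all lay below vehicle made up 1.92% of the 14838 genes tested in this tissue.

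The means from vehicle to the highest dose were 387 ± 21.7, 363 ± 48.8, 312 ± 42.5 and 262 ± 30.1 CPM (SD, n = 4, 5, 6 and 6). The fitted log2 differences from vehicle were -0.10, -0.31 and -0.56, the last of which is a change of -32.3%. These values chose the gene and carry no test here. The counts behind them ran from 2087 to 4268 per library, so counting error was small beside the spread between mice. When any 1 of the libraries at vehicle or 6 mg/kg was left out, the difference stayed between -0.60 and -0.52.

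**Figure D1:**
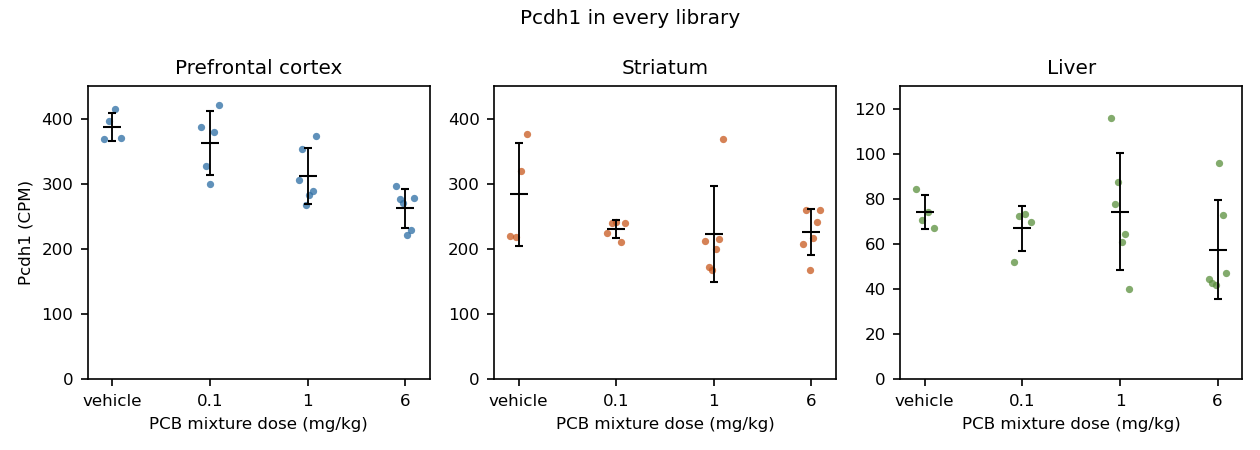
Level of Pcdh1 in CPM (vertical axis, from 0; the liver has its own scale) in each library by dose of the PCB mixture in mg/kg (horizontal axis), with a bar for the group mean and its SD. In the prefrontal cortex the means step down from 387 to 262 CPM, in the striatum the treated means lie between 223 and 231 CPM with 1 library at 369 CPM, and in the liver all groups overlap.

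Other properties of these libraries were also compared between the groups. The GC slope of a library (the Spearman correlation, across genes, of its deviation from the mean with the GC content of the gene) ran from -0.34 to 0.25 in vehicle and from -0.59 to 0.26 at 6 mg/kg, where only 1 of 6 libraries was above 0. Adjusted for that slope, the log2 difference of Pcdh1 was -0.59, and after an offset for the GC content and length of each gene it was -0.43. Cortical excitatory neuron markers summed to 1916 to 2352 CPM in vehicle and to 1470 to 2072 CPM at 6 mg/kg, and 1 of the 8 markers had an unadjusted p under 0.05. That level was reached by 9.27% of all genes. The 3 listed blood markers summed to 42 to 583 CPM in vehicle and 12.1 to 80 CPM at 6 mg/kg, and 3 of 3 had an unadjusted p under 0.05. Oligodendrocyte markers summed to 2018 to 2978 CPM (median 2316) in vehicle and 2680 to 3151 CPM (median 2771) at 6 mg/kg, and pericyte and smooth muscle markers to 106 to 131 and 126 to 144 CPM, with 1 of 5 of each at that level. Endothelial markers, also 1 of 5, summed to 147 to 184 and 152 to 182 CPM. The part of the GC slope and of these markers in the lower Pcdh1 level was not tested. The 5 pan-neuronal markers summed to 4670 to 5621 CPM in vehicle and 4824 to 5529 CPM at 6 mg/kg, with 0 of 5 at an unadjusted p under 0.05.

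Among all tested genes, those whose log2 CPM followed Pcdh1 most closely over the 21 prefrontal cortex libraries were Klf13 (r = 0.93), a zinc finger transcription factor, Elfn2 (0.90), Jade2 (0.90), Rai1 (0.89) and Mapt (0.89), which encodes the microtubule-binding protein tau. The most opposite were Ntsr2 (-0.89), Opalin (-0.86), a membrane protein of oligodendrocytes, and Hdhd2 (-0.84). These values include the differences between dose groups. Over deviations from the dose-group means the closest were Wipf2 (0.93), Slc6a17 (0.87), Nova2 (0.87), Rnf165 (0.86) and Mef2d (0.86), a different 5, and the most opposite were Tlr2 (-0.84), Prpf38a (-0.83) and Anp32b (-0.83). All points share their libraries, with their depth and GC slope, and these values are a description.

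The striatum and the liver of the same mice gave measurements of Pcdh1 that the choice of the gene had not used. In the striatum Pcdh1 did not pass at any dose. The 4 vehicle libraries held 218, 219, 320 and 377 CPM, and those at 0.1 mg/kg held 210, 224, 239, 240 and 241 CPM. The lowest, median and highest were 168, 206 and 369 CPM at 1 mg/kg and 168, 229 and 260 CPM at the highest dose. The vehicle libraries fell into a pair near 218 CPM and a pair at 320 and 377 CPM, and all 6 libraries at 6 mg/kg were below the vehicle mean while 3 of them lay below the lowest vehicle library.

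The mean after 6 mg/kg was 226 ± 35.7 CPM against 283 ± 78.7 CPM in vehicle mice (SD, n = 6 and 4). The log2 difference was -0.33 (SE 0.19, 95% interval -0.71 to 0.06, edgeR quasi-likelihood test, unadjusted p 0.0905, adjusted p 0.387). The slope per dose step was -0.10 (SE 0.06, edgeR adjusted p 0.456). Without the vehicle library numbered 8 alone the difference was -0.16 and the slope -0.05. The interval holds both no difference and the prefrontal cortex value of -0.56. Of the 3 libraries with over 1000 CPM of cortical markers, those numbered 8 and 50 had the highest Pcdh1 levels of the tissue, 377 and 369 CPM, and the one numbered 46 was near the middle of its group at 200 CPM. Without these 3 libraries the difference was -0.16 (SE 0.14, edgeR adjusted p 0.600), and adjusted for the GC slope it was -0.68 (SE 0.14, edgeR adjusted p 0.240). Neither the cortical markers nor the GC slope, which was above 0 in 6 of 6 libraries at 6 mg/kg and in 2 of 4 vehicle libraries, was tested as a source of the difference.

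**Figure D2:**
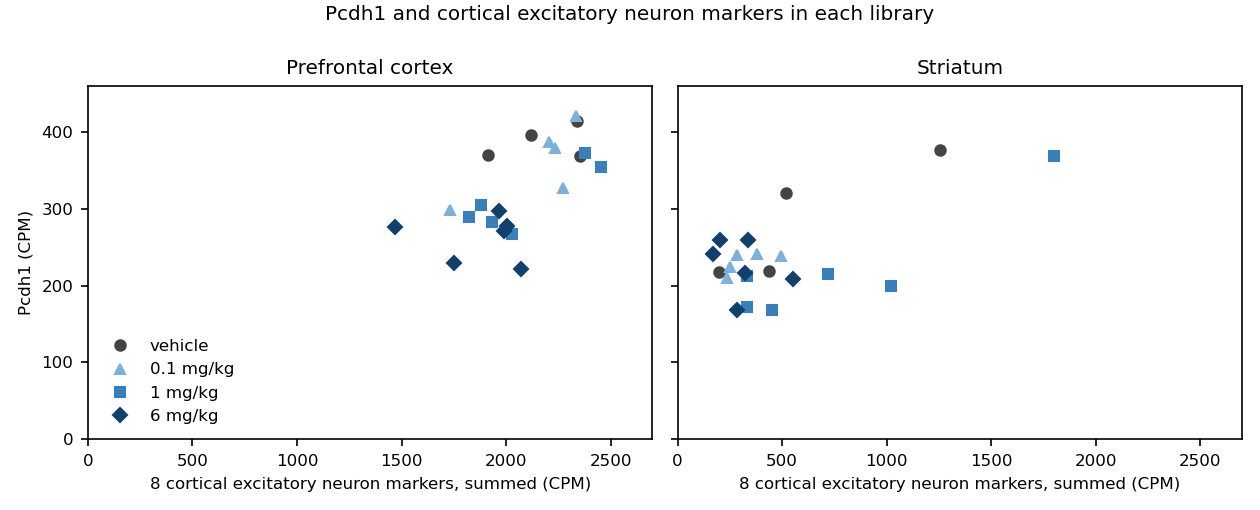
Level of Pcdh1 in CPM (vertical axis) against the summed level of 8 cortical excitatory neuron markers in CPM (horizontal axis) in each of the 21 libraries of a tissue, with the dose as colour and marker shape. In the striatum the libraries at 1257 and 1802 CPM of markers hold 377 and 369 CPM of Pcdh1, and in the prefrontal cortex all 6 libraries at 6 mg/kg hold 221 to 297 CPM of Pcdh1 across marker sums of 1470 to 2072 CPM.

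In the liver Pcdh1 was much lower than in either brain region, and it did not pass at any dose. The vehicle libraries held 66.8, 70.6, 74.1 and 84.5 CPM and those at 0.1 mg/kg held 52, 69.6, 72.4 and 73.2 CPM. The lowest, median and highest were 40, 71 and 116 CPM at 1 mg/kg and 41.8, 45.8 and 95.7 CPM at the highest dose. At 6 mg/kg, 4 of 6 libraries lay below the lowest vehicle library and the other 2 did not, so the groups overlapped. The mean was 57.4 ± 22.1 CPM against 74 ± 7.63 CPM in vehicle mice (SD, n = 6 and 4), with a log2 difference of -0.37 (SE 0.25, 95% interval -0.89 to 0.15, edgeR adjusted p 0.373). The GC slope was above 0 in 0 of 4 vehicle libraries and in 5 of 6 at 6 mg/kg, and adjusted for it the difference was 0.06. It was -0.68 with the GC and length offset, -0.13 with 1 surrogate variable, and -0.57 without the treated library numbered 55, where 1 liver member had an unadjusted p under 0.05 against 0 in the full data.

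None of the other 9 members passed in the prefrontal cortex. By edgeR's quasi-likelihood test 0 of 9 passed an adjusted p of 0.05 at any dose or for the trend, where it called 0% of 14838 genes at each dose and 0.0202% for the trend. DESeq2's Wald test also called 0 of 9, where it called 25 genes at 6 mg/kg, 0 at 1 mg/kg, 1 at 0.1 mg/kg and 82 for the trend. At an unadjusted p under 0.05, 0 of 9 were called at the highest dose against 9.27% of all genes, 0 of 9 at 1 mg/kg against 8.29%, 0 of 9 for the trend against 9.79%, and 1 of 9 at 0.1 mg/kg against 6.43%. That 1 was Pcdh20, at 14.4 ± 3.5 CPM (SD, n = 5) against 18.7 ± 1.7 CPM in vehicle (SD, n = 4), a log2 difference of -0.38 (unadjusted p 0.0381, edgeR adjusted p 0.742). At the highest dose the count was 1 of 9 with the GC slope as a term or with only the 2 groups compared. The count at 0.1 mg/kg depended on single libraries. It was 6 of 9 without the treated library numbered 23 and 3 without vehicle number 8. It was 2 without number 29 and 0 or 1 without any other. The shares of all genes were taken for the full fits only. Of the 9, 8 lay below 0 at this dose, all but Pcdh8 (0.04), where 48.1% of all genes did.

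Among the delta1 members, Pcdh7, a binder of protein phosphatase 1, held 145, 178, 202 and 207 CPM in the prefrontal cortex of vehicle mice and 135, 176 and 198 CPM (lowest, median, highest) at 6 mg/kg. Pcdh9, the longest gene of the family at 879 kb, held 112, 121, 137 and 148 CPM in vehicle and 98.1, 132 and 145 CPM at 6 mg/kg. The groups of both genes overlapped almost wholly. Their log2 differences were -0.07 (95% interval -0.37 to 0.23) and 0.00 (-0.29 to 0.28), and that of Pcdh11x, a gene of the X chromosome, was 0.02 (-0.42 to 0.46).

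Of the delta2 members in the prefrontal cortex, Pcdh8, also known as arcadlin and induced by neuronal activity, was at 59.5 ± 7.03 CPM in vehicle mice and 53.2 ± 3.79 CPM after the highest dose (SD, n = 4 and 6), with a log2 difference of -0.16 (95% interval -0.39 to 0.07). All 6 libraries at 6 mg/kg were below its vehicle mean, which 1 vehicle library at 69.9 CPM raised. Pcdh19, mutated in a form of epilepsy that affects mostly girls, had the lowest value of the 9, -0.33 (95% interval -0.76 to 0.10, edgeR adjusted p 0.656), with 33.2 to 44.9 CPM in vehicle and 22.7 to 40.6 CPM at 6 mg/kg. Pcdh10, which takes part in activity-driven synapse removal, was at -0.08, Pcdh17 at -0.17 and Pcdh18 at -0.23. Pcdh20 was at 0.13. The GC and length offset gave -0.17 for Pcdh19 and -0.06 for both Pcdh8 and Pcdh17, while the GC slope as a term gave -0.49, -0.14 and -0.36. The 95% intervals of all 9 held 0, and their widths differed by gene: that of Pcdh9 ran from -0.29 to 0.28 and that of Pcdh11x from -0.42 to 0.46.

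In the striatum 0 of the 10 members passed at any dose or for the trend by edgeR, which called 0% of 15118 genes in each. DESeq2 also called 0 of 10, where it called 31 genes at 6 mg/kg, 5 at 1 mg/kg, 1 at 0.1 mg/kg and 22 for the trend. At an unadjusted p under 0.05, edgeR called 0 of 10 at 6 mg/kg (up to 2 when 1 library was left out) against 15.7% of all genes, 0 of 10 at 0.1 mg/kg (1 without the vehicle library numbered 4) against 2.53%, and 0 of 10 for the trend (2 without the vehicle library numbered 3 or the one numbered 50) against 13.1%. DESeq2 gave 1 of 10 for the trend at that level, and with the GC slope as a term Pcdh1 reached it at 6 mg/kg by edgeR. The shares of all genes at that level are those of the full edgeR fits. All 10 slopes over dose lay below 0, from -0.11 for Pcdh19 to -0.02 for Pcdh8 and Pcdh18, where 47.5% of all genes had a slope below 0. After the offset for GC content and length, 5 of the 10 slopes lay below 0, and adjusted for the GC slope of each library 6 did. The median of the members at 6 mg/kg was -0.19 and that of all genes 0.01. In the same libraries the 5 oligodendrocyte markers summed to 3888 to 5863 CPM in vehicle and 5876 to 8081 CPM at 6 mg/kg. The 5 pan-neuronal markers summed to 2925 to 3571 CPM (median 3125) in vehicle and 2684 to 2986 CPM (median 2788) at 6 mg/kg, with 1 of 5 at an unadjusted p under 0.05. Cortical excitatory neuron markers summed to 200 to 1257 CPM (median 476) in vehicle and 170 to 552 CPM (median 301) at 6 mg/kg, with 2 of 8 at that level. Blood markers summed to 68.2 to 545 CPM in vehicle and 43.8 to 139 CPM at 6 mg/kg (3 of 3 at that level), and microglial markers to 230 to 289 and 244 to 327 CPM (2 of 5). The part of these markers in the slopes was not tested.

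**Figure D3:**
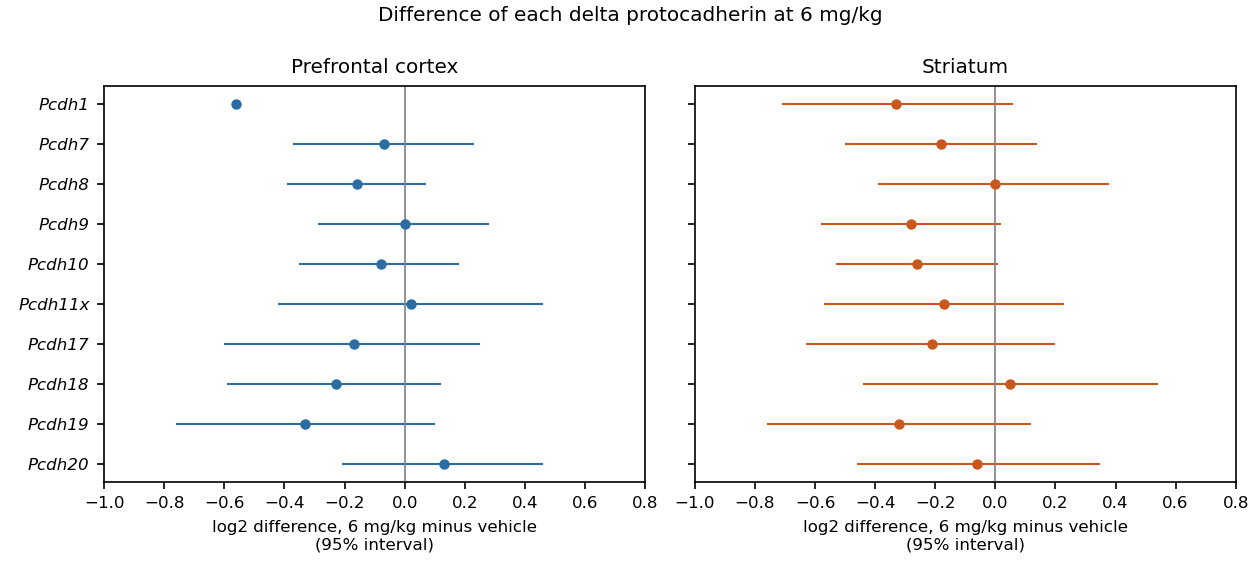
Log2 difference between 6 mg/kg and vehicle (horizontal axis) for each member in the prefrontal cortex and the striatum, with the fitted value as a point and its 95% interval as a line. Pcdh1 in the prefrontal cortex is drawn without an interval because its values there chose it, at -0.56, and each interval drawn in either tissue includes 0.

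The lowest unadjusted p at 6 mg/kg in the striatum belonged to Pcdh10, at -0.26 (95% interval -0.53 to 0.01, unadjusted p 0.061, edgeR adjusted p 0.342), and to Pcdh9, at -0.28 (-0.58 to 0.02, unadjusted p 0.0628, edgeR adjusted p 0.345). Pcdh9 held 83.3, 95.7, 95.8 and 125 CPM in vehicle. At 6 mg/kg 5 of 6 libraries lay between 86.3 and 93.7 CPM, within the vehicle range, and the one numbered 54 held 48.6 CPM. That library was also the lowest of its group for Pcdh1 (168 CPM), Pcdh7 (54.1 CPM), Pcdh10 (176 CPM), Pcdh11x (16.6 CPM), Pcdh17 (61.3 CPM) and Pcdh19 (22.6 CPM). Without it the log2 difference was -0.16 for Pcdh10 and -0.17 for Pcdh9, and without the vehicle library numbered 4 that of Pcdh9 was -0.16. The GC and length offset gave -0.02 for Pcdh10 and -0.06 for Pcdh9, and the GC slope as a term gave -0.30 and -0.09.

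Pcdh8 was the 1 member of the 10 with an unadjusted p under 0.05 at a single dose in the striatum, the middle one. Its vehicle libraries held 76.3, 106, 109 and 134 CPM. Those at 0.1 mg/kg ran from 87.8 to 107 CPM. The lowest, median and highest of 6 libraries were 54, 69.3 and 111 CPM at 1 mg/kg, and 62.8, 113 and 126 CPM at the highest dose. Most libraries at 1 mg/kg thus lay low, 5 of 6 below the vehicle mean, with overlap between all groups. The log2 difference at 1 mg/kg was -0.51 (unadjusted p 0.0113, edgeR adjusted p 0.675; 7.36% of all genes had an unadjusted p under 0.05), and at 6 mg/kg it was 0.00 (95% interval -0.39 to 0.38). The count of members at this level for 1 mg/kg was 4 without the vehicle library numbered 4. It was 2 without vehicle number 3 or treated number 50, and 0 without vehicle number 8. No share of all genes was taken for these fits. In the same libraries the GC slope was above 0 in 1 of 6 libraries at 1 mg/kg and in 6 of 6 at 6 mg/kg, and the longest transcript of Pcdh8 is 59.3% GC. At 6 mg/kg the Pcdh8 difference lay below 0 with the GC slope as a term and with the GC and length offset. The part of the GC slope was not tested.

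Whether the effect of 6 mg/kg differed between the regions was tested in 1 fit over both brain tissues. The difference between the effects, striatum minus prefrontal cortex, ran from -0.29 for Pcdh9 (95% interval -0.71 to 0.14) to 0.27 for Pcdh18 (-0.34 to 0.88). By edgeR 0 of 9 members passed, against 0% of 15402 genes, 0 of 9 had an unadjusted p under 0.05 against 6.85% of all genes, and DESeq2 called 0 as well. For Pcdh1, which is described only, the value was 0.22.

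**Figure D4:**
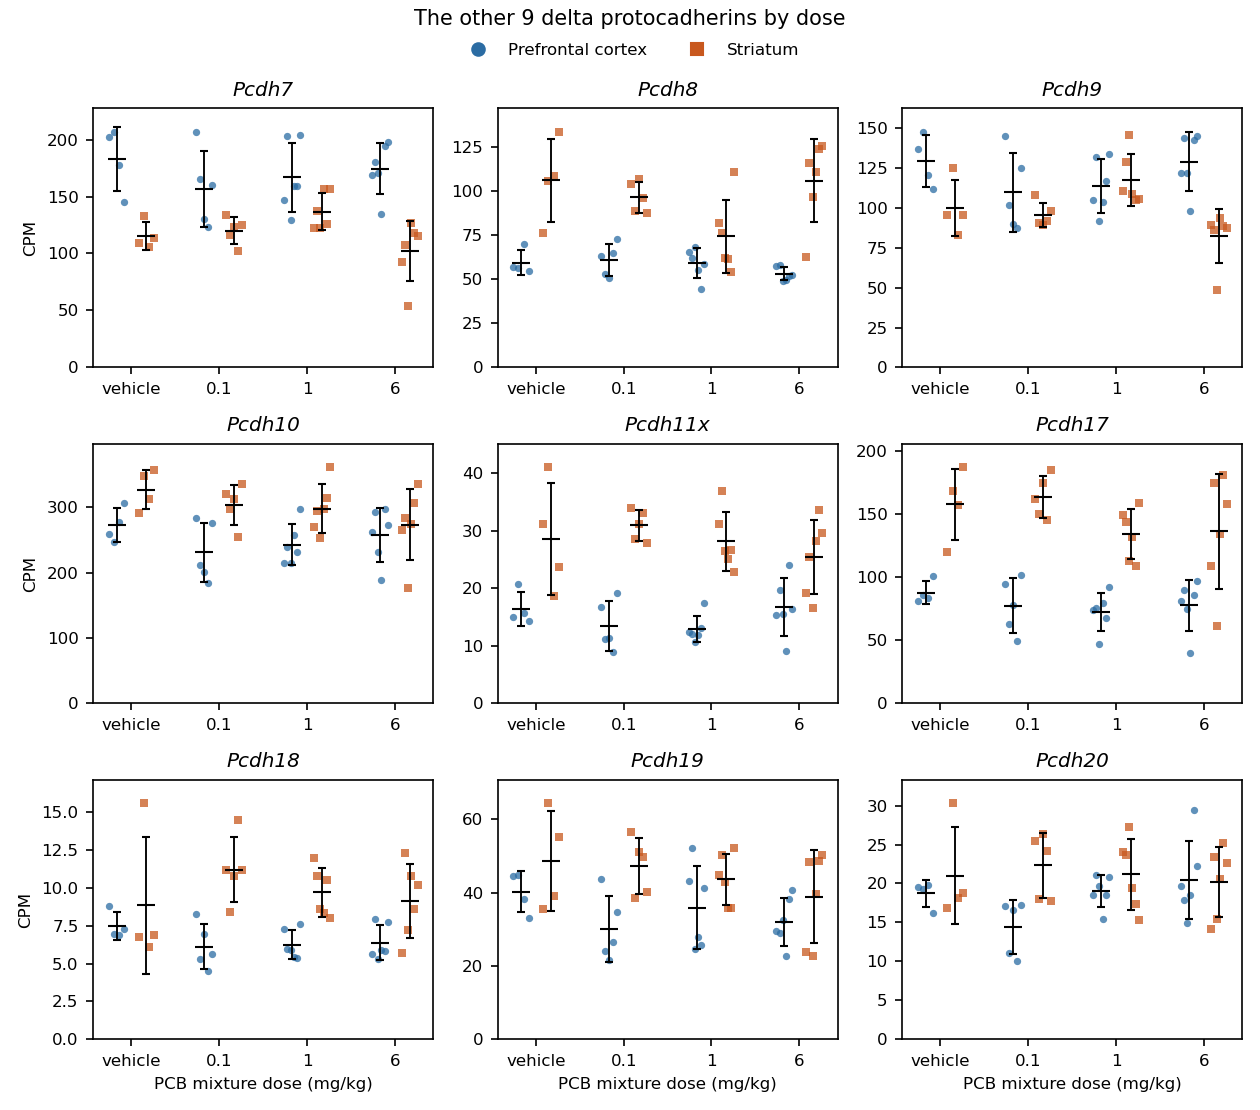
Level in CPM (vertical axes, each from 0) of the 9 members other than Pcdh1 in each prefrontal cortex library (blue circles) and striatum library (orange squares) by dose of the PCB mixture in mg/kg, with bars for the group mean and SD. Pcdh8, Pcdh11x and Pcdh17 lie higher in the striatum and Pcdh7 lower, while the dose groups of each tissue overlap. Each tissue was scaled on its own.

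More members passed between regions than between doses, and so did more of all genes. In vehicle mice 5 of the 9 members passed between striatum and prefrontal cortex by edgeR, where 21.4% of 15402 genes did. Pcdh8, Pcdh17 and Pcdh11x were higher in the striatum, and Pcdh7 and Pcdh9 were higher in the prefrontal cortex. Both delta2 members that passed were thus higher in the striatum, while the delta1 members went both ways. DESeq2 also called 5. Without any 1 of the 4 vehicle mice the count was 2 or 3, and without the 3 striatum libraries rich in cortical markers it was 3. The share of 21.4% is that of the full edgeR fit.

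Pcdh8 held 54.6, 56.4, 57.1 and 69.9 CPM in the prefrontal cortex and 76.3, 106, 109 and 134 CPM in the striatum of vehicle mice. Here each tissue was scaled on its own, as for the other members below. Scaled over both tissues the libraries ran from 56 to 71.9 and from 73.7 to 130 CPM. The groups overlapped on neither scale, and on the second 11.8% of all genes did not overlap in this direction. Scaled over both tissues the means were 61.2 ± 7.24 and 103 ± 23.2 CPM (SD, n = 4 each), a log2 difference of 0.75 (SE 0.17, edgeR adjusted p 0.00133), and it was higher in the striatum in 20 of 21 mice over all doses. Pcdh17, which is known for its role at corticostriatal synapses, held 80.8, 83.4, 85.9 and 101 CPM in the prefrontal cortex and 120, 157, 168 and 187 CPM in the striatum, again with no overlap. Its log2 difference was 0.76 (SE 0.24, edgeR adjusted p 0.017), and 20 of 21 mice showed it.

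Pcdh11x was a low gene in both, with 14.3, 15, 15.7 and 20.8 CPM in the prefrontal cortex and 18.6, 23.7, 31.2 and 41 CPM in the striatum, where the lowest library overlapped. Its log2 difference was 0.72 (SE 0.23, edgeR adjusted p 0.0224), and it was higher in the striatum in 20 of 21 mice. Pcdh7 went the other way. It held 145, 178, 202 and 207 CPM in the prefrontal cortex and 106, 109, 114 and 133 CPM in the striatum, with no overlap, as for 12.1% of all genes in this direction. The log2 difference was -0.75 (SE 0.17, edgeR adjusted p 0.00123), and it was lower in the striatum in 21 of 21 mice. Pcdh9 had a log2 difference of -0.45 (SE 0.16, edgeR adjusted p 0.0395) with overlapping libraries, and was lower in the striatum in 19 of 21 mice.

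Pcdh7 and Pcdh8 passed in vehicle mice whichever mouse was left out. Pcdh9 passed in none of the 4 such fits (edgeR adjusted p 0.0552 to 0.173) and Pcdh17 in 1 of 4, and neither passed without the 3 striatum libraries rich in cortical markers (edgeR adjusted p 0.0839 and 0.0602). Pcdh11x did not pass without the mouse numbered 3 (edgeR adjusted p 0.129) or the one numbered 4 (0.103). Pcdh10, Pcdh18, Pcdh19 and Pcdh20 did not pass, with log2 differences from 0.08 to 0.19. Pcdh10 passed with the GC and length offset (0.28, edgeR adjusted p 0.032). Pcdh1, described only, was at -0.54 and was lower in the striatum in 21 of 21 mice.

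The same comparison in the mice given 0.1, 1 and 6 mg/kg, which shared no library with the vehicle mice, showed which differences recurred. Passing members numbered 7 of 9 at 0.1 mg/kg, 4 of 9 at 1 mg/kg and 5 of 9 at 6 mg/kg, where 28.8%, 26.7% and 48.1% of all genes passed. These shares are from the fit with all mice. At 0.1 mg/kg 4 passed without the mouse numbered 24 or 28. At 1 mg/kg 2 passed without the one numbered 41, 42, 45 or 48 and 3 without either other. At 6 mg/kg 4 to 6 passed when 1 mouse was left out. Pcdh11x (log2 difference 0.72, 1.12, 1.05 and 0.52 from vehicle to the highest dose) and Pcdh17 (0.76, 1.00, 0.81 and 0.72) were higher in the striatum, and Pcdh7 was lower (-0.75, -0.47, -0.37 and -0.87), in each of the 4 dose groups. This is 3 of 9 members where 13.1% of all genes passed in 1 direction in each group. Without the 3 striatum libraries rich in cortical markers the same held for Pcdh11x and Pcdh7, and not for Pcdh17. Leaving out any 1 of the 21 mice left 1 to 3 members. The count was 1 without the mouse numbered 3, 4, 7 or 58, and Pcdh7, whose adjusted p at 1 mg/kg was 0.0476, remained in 9 of the 21 fits.

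Others passed in some dose groups only. Pcdh8 passed in all but the 1 mg/kg group (0.25, edgeR adjusted p 0.192), which is the group in which its striatal level was low. Pcdh9 passed in vehicle and at 6 mg/kg (-0.74, edgeR adjusted p 1.55e-05), and its value at 1 mg/kg was -0.03. Pcdh18, one of the lowest members, passed at 0.1 mg/kg (0.79, edgeR adjusted p 0.00331) and at 1 mg/kg (0.56, edgeR adjusted p 0.0266), and Pcdh19 (0.57) and Pcdh20 (0.54) passed at 0.1 mg/kg. Pcdh10 passed in no group. Differences between dose groups in these regional values were tested only between 6 mg/kg and vehicle, as given above.

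**Figure D5:**
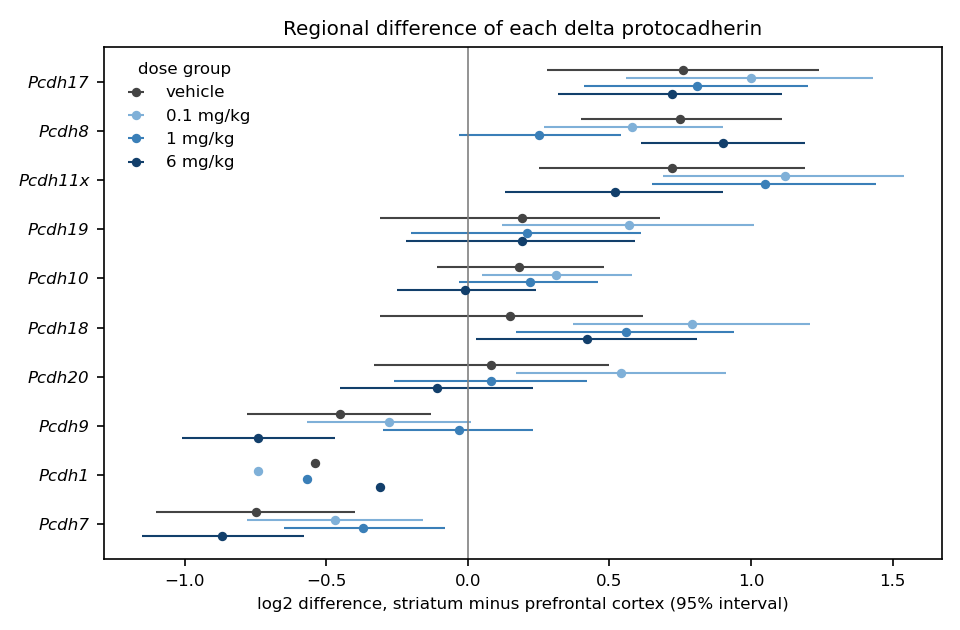
Log2 difference between striatum and prefrontal cortex (horizontal axis, positive where the striatum is higher) of each member in the 4 dose groups, with the fitted value as a point and its 95% interval as a line. Pcdh17 and Pcdh11x lie right of 0 and Pcdh7 left of 0 in all 4 groups, Pcdh8 reaches 0 at 1 mg/kg only, and Pcdh1 is drawn without intervals because its prefrontal cortex values chose it.

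Upstream sequence is shown for 3 genes of chromosome 14 that passed between regions in opposite directions, Pcdh8 and Pcdh17 (higher in striatum) and Pcdh9 (higher in prefrontal cortex). The RefSeq table (GRCm38.p6) held a start for 8 of the 10 members, all but Pcdh1 and Pcdh11x. Each run is the 250 bases before the start in that table, 5′ to 3′ on the strand of the gene, at chr14:79771313-79771562 (minus), chr14:84443313-84443562 (plus) and chr14:93890680-93890929 (minus), with any searched motif in capitals. The widest RefSeq span of Pcdh9 ends at position 93892834, so its run lies inside that span, whereas those of Pcdh8 and Pcdh17 border the gene.
Pcdh8: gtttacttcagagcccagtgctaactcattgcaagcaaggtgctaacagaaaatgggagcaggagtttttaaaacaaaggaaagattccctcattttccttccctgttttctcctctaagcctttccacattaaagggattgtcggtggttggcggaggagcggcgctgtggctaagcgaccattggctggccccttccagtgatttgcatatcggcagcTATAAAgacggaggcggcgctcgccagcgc
Pcdh17: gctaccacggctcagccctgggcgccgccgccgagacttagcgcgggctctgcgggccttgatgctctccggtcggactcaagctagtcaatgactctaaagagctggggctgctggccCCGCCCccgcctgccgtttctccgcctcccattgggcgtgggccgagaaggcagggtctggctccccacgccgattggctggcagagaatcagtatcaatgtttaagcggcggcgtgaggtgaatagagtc
Pcdh9: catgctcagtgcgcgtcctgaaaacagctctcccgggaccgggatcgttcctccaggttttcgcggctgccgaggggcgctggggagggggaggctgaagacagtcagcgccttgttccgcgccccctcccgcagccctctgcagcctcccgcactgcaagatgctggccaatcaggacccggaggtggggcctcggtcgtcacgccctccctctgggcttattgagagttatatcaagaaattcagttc

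Motifs of 4 kinds were searched on both strands, and no match shown overlaps another. Pcdh8 held the TATA box (TATAAA), as did 12.4% of all 32851 windows of this length, and no other member with a window held one. The GC box (GGGCGG), present in 32.7% of all windows, was in those of Pcdh10, Pcdh17, Pcdh18 and Pcdh19. The windows of Pcdh18 and Pcdh19 overlap the widest span of their gene in part, and that of Pcdh7 lies inside it. The cAMP response element (TGACGTCA), found in 1.55% of all windows, was in none of the 8. The E-box (CACGTG), found in 6.02%, was also in none, which says only that these letters are not in these windows. GC content was 51.2% with 11 CpG for Pcdh8, 64.8% with 21 for Pcdh17 and 63.6% with 18 for Pcdh9, where the median of all windows was 52.4% and 6 CpG.

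Within dose groups the members varied together from library to library. Over the 21 prefrontal cortex libraries, deviations from the dose-group means of log2 CPM gave a Pearson r above 0 for 45 of 45 pairs of members, with a median of 0.49 and a range of 0.05 to 0.94. All pairs of the 14838 tested genes had a median of 0.00, and 49.9% were above 0. The closest pair was Pcdh7 and Pcdh9 (0.94), followed by Pcdh10 and Pcdh17 (0.87). Pairs across the subfamilies were also close, with 0.81 for Pcdh11x with Pcdh10 and with Pcdh17, and in the striatum 0.86 for Pcdh7 and Pcdh10. The most distant was Pcdh7 and Pcdh8 (0.05). In the striatum 41 of 45 pairs were above 0 with a median of 0.55, and the 4 below 0 all held Pcdh1, with Pcdh9 (-0.07), Pcdh18 (-0.18), Pcdh11x (-0.25) and Pcdh20 (-0.26). These correlations are a description over libraries that also share depth, GC slope and the make-up of the punch.

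The other parts of the delta protocadherin pathway showed no gene that passed at 6 mg/kg in either brain region by edgeR, as for 0% of all genes, so the lists are described by counts at an unadjusted p under 0.05. At that level 4.99% of all genes were lower and 4.28% higher in the prefrontal cortex, and 8.24% lower and 7.48% higher in the striatum. Of the 10 genes of the WAVE complex, 0 were called at 6 mg/kg in either region. Between regions 5 of these 10 passed in vehicle mice, against 21.4% of all genes, all lower in the striatum, among them Cyfip2 (936 ± 62.7 against 1340 ± 57.8 CPM, SD, n = 4 each) and Wasf1 (199 ± 28.5 against 272 ± 18.1 CPM, SD, n = 4 each). Their median regional difference was -0.31, against 0.02 over all genes.

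Of 14 partners and regulators, 2 were lower in the prefrontal cortex after the highest dose at an unadjusted p under 0.05, and 5 in the striatum, against the 4.99% and 8.24% of all genes. Taok2, a kinase that acts with Pcdh8 in the removal of N-cadherin from the synapse, was at -0.18 in the prefrontal cortex (edgeR adjusted p 0.492). Mef2d, a member of the transcription factor family that drives Pcdh10, was at -0.22 (edgeR adjusted p 0.472). In the striatum Fmr1, whose RNA-binding product takes part in the same synapse removal as Pcdh10, was at 48.3 ± 3.96 CPM in vehicle mice and 35.1 ± 6.37 CPM after the highest dose (SD, n = 4 and 6), with a log2 difference of -0.46 (SE 0.12, edgeR adjusted p 0.208). Mef2a was at -0.35 (edgeR adjusted p 0.212). Between regions, where 21.4% of all genes passed, Mef2c and Fmr1 did, both lower in the striatum, at -1.74 and -0.66.

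Activity-regulated genes were followed because Pcdh8 is one of them, and the list was chosen with earlier results of these data known. The counts are therefore a description. Of the 19 others, 5 in one region (prefrontal cortex) and 12 in the other (striatum) were lower at 6 mg/kg with an unadjusted p under 0.05, where 4.99% and 8.24% of all genes were. Their medians were -0.35 and -0.63. The GC slope was above 0 in 2 of 4 vehicle and 6 of 6 libraries at 6 mg/kg in the striatum. With that slope as a term 14 of 19 were lower there (median -0.82) and 3 in the prefrontal cortex (median -0.25), where 6.99% and 11.5% of all genes were. Without the 3 striatum libraries richest in cortical excitatory markers the striatal count was 10. Leaving out 1 library gave 8 to 16 in the striatum and 3 to 10 in the prefrontal cortex, with 10 without the treated library numbered 54 and 3 without vehicle number 7 or 8 or treated number 55 or 56. These settings were applied to this list after seeing the data. The part of the blood and cortical markers given above in these values was not tested. Fosl2, a subunit of the AP-1 transcription factor, was at 68.8 ± 26.5 against 26 ± 8.74 CPM in the striatum (SD, n = 4 and 6; log2 difference -1.40, edgeR adjusted p 0.208). Dusp4, a phosphatase of MAP kinases, was at 24.6 ± 2.61 against 13.2 ± 4.11 CPM in the prefrontal cortex (SD, n = 4 and 6; log2 difference -0.90, edgeR adjusted p 0.15). Pcdh8 itself was at -0.16 and 0.00. With the GC slope as a term it was at -0.14 in the prefrontal cortex and below 0 in the striatum.

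The clustered protocadherins, whose genes lie in a row and share exons in the alpha and gamma clusters, so that counts per gene are uncertain, had 56 tested members. At 6 mg/kg 3 (prefrontal cortex) and 6 (striatum) were lower at an unadjusted p under 0.05 and 0 higher, with medians of -0.17 and -0.21, where 4.99% and 8.24% of all genes were lower. Between regions, where 21.4% of all genes passed, 2 passed higher in the striatum (Pcdhgc4 and Pcdhgb6) and 2 lower (Pcdha11 and Pcdha12). Of 18 tested classical and related cadherins, 0 in the prefrontal cortex, and 2 higher and 2 lower in the striatum, were called after the highest dose at that level. Between regions Cdh8 was higher in the striatum (0.74), and Cdh12 (-1.35), Cdh10 (-0.46) and Cdh6 (13.8 ± 2.25 against 27.5 ± 9 CPM, SD, n = 4 each) lower. Of 12 other members of the cadherin superfamily, 2 in the prefrontal cortex (Celsr2 and Pcdh15) and 1 in the striatum (Fat4) were lower at that level. Of 6 catenins, which link classical cadherins to actin, 1 was lower in each region. The same shares of all genes, 4.99% and 8.24%, stand beside these lower counts.

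In the liver the family was close to silent apart from Pcdh1. Of the other 8 listed members none exceeded 1.9 CPM in any library except Pcdh18, which reached 2.46 CPM, and 6 of the 8 had a count of 0 in at least 1 library. A count of 0 allows up to 3 counts, which is 0.294 to 0.406 CPM in these libraries. The filter on low counts left Pcdh7, Pcdh17 and Pcdh18 beside Pcdh1. By edgeR 0 of these 4 passed at 6 mg/kg, against 2.8% of 12968 genes, and 0 had an unadjusted p under 0.05, against 24.2%. The 95% intervals of Pcdh7 (-1.86 to 0.74), Pcdh17 (-2.14 to 0.79) and Pcdh18 (-1.18 to 1.11) are wide at 0 to 21 counts per library, and a change of 1 on the log2 scale was not detectable for them.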

How the data were processed

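The authors deposited 1 table per tissue of whole-number read counts per Entrez gene, each listing genes with at least 10 counts in total. HISAT2, FastQC and mm10 are named in the submitters' processing notes, and the counting tool, annotation and use of strand are not given in the sources used here. Symbols came from RefSeq (GRCm38.p6).

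Counts were fitted per tissue with edgeR 4.0.16 in R 4.3.3 (filterByExpr, TMM, robust quasi-likelihood), with all dose groups in 1 fit, each dose against vehicle and a slope over dose rank. The regions were compared in a second fit over 8 groups of both brain tissues. Benjamini-Hochberg adjustment ran over all tested genes, with a threshold of 0.05. Log2 CPM used a prior count of 2. Fits were checked on simulated counts. Libraries of a group differed by a chi-square of at least 2.94 per degree of freedom, so each counted as 1. Lengths and GC content came from GENCODE vM21.

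The 10 members, the gene lists and the markers were chosen with earlier results of these data known. Named beyond the members are the 5 genes most like and 3 most unlike Pcdh1, and for each list at most 4 passing genes, or 2 not passing, with the smallest p. Alternatives were DESeq2 1.42.0, its size factors, 2 other filters, 1 surrogate variable (sva 3.50.0), GC and length offsets, the 2 groups alone, a slope over mg/kg, a replicate block and each library left out. In the fits over both regions each mouse was left out. A GC slope covariate, the removal of 3 striatum libraries the alternatives for the regional counts at each dose and those for the activity-regulated genes were added after seeing the data.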

Additional observations from a re-analysis of the deposited data

Results flagged for a closer look

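Of 96 sets of libraries of 1 gene and 1 group, 9 held a library far from the others by Dixon's gap test, where chance gives 4.8. In the prefrontal cortex these were Pcdh8 in a vehicle library at 69.9 CPM (next 57.1), Pcdh20 in a vehicle library at 16.2 CPM (next 19.3) and Pcdh11x in a 1 mg/kg library at 17.4 CPM (next 13.1). In the striatum they were Pcdh1 at 1 mg/kg at 369 CPM (next 215), Pcdh9 at 6 mg/kg at 48.6 CPM (next 86.3), and, in the same vehicle library, Pcdh18 at 15.6 CPM (next 6.88) and Pcdh20 at 30.3 CPM (next 18.8). In the liver Pcdh1 stood low in a 0.1 mg/kg library at 52 CPM (next 69.6) and Pcdh18 high in a 6 mg/kg library at 2.46 CPM (next 1.15).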

How the results depend on the processing

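Counts of passing members stayed within 1.5 times the reported value under every alternative that kept all libraries. Without the 3 striatum libraries rich in cortical markers, 3 members passed between regions in vehicle mice in place of 5. Leaving out 1 mouse, with both its brain libraries, gave 2 to 3 there and 4 to 7 at 0.1 mg/kg. It gave 2 to 3 at 1 mg/kg, 4 to 6 at 6 mg/kg and 1 to 3 in all 4 dose groups. Leaving out single libraries left 0 in each comparison with vehicle.

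Members that did not pass changed direction at 6 mg/kg in some fits. In the prefrontal cortex Pcdh7 turned to 0.01 with 1 surrogate variable and to 0.05 with the GC and length offset, and Pcdh11x to -0.18 with the GC slope. In the striatum the GC and length offset gave 0.03 for Pcdh7, 0.15 for Pcdh11x, 0.01 for Pcdh17 and 0.14 for Pcdh20, the GC slope gave 0.16 for Pcdh11x and 0.17 for Pcdh20, and Pcdh18 turned to -0.03 with 1 surrogate variable and to -0.06 without the 3 libraries. Liver Pcdh1 turned to 0.06 with the GC slope. The cause was not tested. Without single libraries the ranges that crossed 0 in the prefrontal cortex were -0.06 to 0.07 for Pcdh9, -0.11 to 0.16 for Pcdh11x and -0.01 to 0.20 for Pcdh20. In the striatum they were -0.13 to 0.13 for Pcdh8, -0.33 to 0.05 for Pcdh11x, -0.09 to 0.47 for Pcdh18 and -0.15 to 0.17 for Pcdh20. Between regions, without single mice, they were -0.31 to 0.36 for Pcdh18 and -0.13 to 0.20 for Pcdh20.

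With the number as a replicate block, 5 members passed between regions in vehicle mice, as without it, and 0 for the interaction. Libraries with the same number correlated at a mean of 0.113 (-0.0906 to 0.237), others at -0.0236, and 12 of 21 correlated best with their own number. Depth limits Pcdh18 in the brain and the liver members other than Pcdh1 most.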
